A study of Homo sapiens with 14 samples.

Results

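Lubricin, the lubricating glycoprotein of the joint surface, and 6 genes tied to the surface zone of articular cartilage were followed through cartilage pellets grown from human embryonic stem cells. The 7 genes are PRG4, which encodes lubricin, ABI3BP, ERG, CREB5, CLU, FOXO1 and FOXO3. They were taken by name, each as the 1 row of the gene tables whose Ensembl identifier carries that symbol, and make up 7 of the 60587 genes listed. All 7 passed the filter on low counts and were among the 17838 genes tested.

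The pellets stayed in chondrogenic medium for 21, 30 or 45 days, with 4, 5 and 5 libraries of whole-pellet RNA in that order. All 14 libraries come from 1 line, WA01, an established human embryonic stem cell line, with no genetic change and no treatment arm given, so that a day is compared with another day and never with an untreated control. Whether replicates came from separate cultures is not labelled, so a p-value covers only the spread among libraries, which may be technical. The treatment label of day 45 replicate 1 reads 30 days while its title reads day 45. It was grouped by its title, and calls of the 7 genes that change with the other reading are given with both. In CPM, defined below, its levels of ABI3BP, CREB5, FOXO1 and FOXO3 lay above every day 30 library. Those of PRG4 and ERG lay below every day 30 library, and CLU lay within their range. Which label is right was not tested. Day 30 replicates 3 to 5 stood apart from the rest, in that longer genes lay lower in them relative to their mean over the libraries. Spearman's rho over genes between that deviation and gene length was -0.43, -0.52 and -0.47 in them and -0.07 to 0.26 in the other libraries. Library totals ran from 18183776 to 33660704 expected counts. Levels called CPM are read counts set against the library total after scaling by the trimmed mean of M-values. The 10 chondrocyte markers, COL2A1 and ACAN among them, summed to between 38170 and 50300 CPM in the libraries of day 21, to between 98630 and 232900 in those of day 30, and to between 195200 and 311900 in those of day 45. COL2A1 alone had mean CPM of 29900, 122000 and 167000 at these days. At an adjusted p below 0.05 in the count test given below, all 10 were higher at day 30 than at day 21. At day 45, 2 were higher and 4 lower than at day 30 (median log2 change -0.07), and 8 were higher and 1 lower than at day 21. In bulk RNA, fewer cells of a type and less RNA per cell cannot be told apart.

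Articular cartilage is layered, and the cells nearest the joint cavity, the superficial zone, secrete lubricin, which coats the surface and lowers friction. These cells descend largely from the joint interzone of the embryo, and ERG, an ETS family transcription factor, marks developing joints and the cartilage at their surface. CREB5, a cAMP response element binding protein, is known to act on PRG4 in surface chondrocytes. FOXO1 and FOXO3 are forkhead factors that AKT kinases hold outside the nucleus and that drive genes of stress defence and autophagy; loss of FOXO1 is known to lower lubricin in cartilage. ABI3BP is an extracellular matrix protein that binds ABI3 and CLU is clusterin, a secreted chaperone, and both are expressed in surface cells of adult cartilage.

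Outside CLU, the genes lie on GRCh38 (GENCODE 29 coordinates) at chr1:186296279-186314562 on the plus strand for PRG4, chr3:100749156-100993515 on the minus strand for ABI3BP, chr21:38380027-38661780 on the minus strand for ERG and chr7:28299321-28825894 on the plus strand for CREB5. FOXO1 lies at chr13:40469953-40666597 on the minus strand and FOXO3 at chr6:108559835-108684774 on the plus strand. Because 4 of the 7 genes encode DNA-binding factors of 3 families, the 250 bases before each RefSeq start (GRCh38.p14) were searched on both strands for 3 motifs, none of which is contained in another. They are TGACG, the core site bound by CREB proteins, GTAAACA, bound by FOXO factors, and AGGAAG, bound by ETS factors. Of 35116 such windows in the table, 21.2% held TGACG, 2.98% held GTAAACA and 28.7% held AGGAAG, on either strand. The windows of the 2 genes that rose from day 21 to day 30 (PRG4 and ABI3BP), of the 2 FOXO genes and of 2 of the 4 starts of ERG are shown. They read 5′ to 3′ on the strand of the gene, with motif matches in capitals, and for ABI3BP the window ends where a GENCODE 29 exon begins.
PRG4, chr1:186296029-186296278: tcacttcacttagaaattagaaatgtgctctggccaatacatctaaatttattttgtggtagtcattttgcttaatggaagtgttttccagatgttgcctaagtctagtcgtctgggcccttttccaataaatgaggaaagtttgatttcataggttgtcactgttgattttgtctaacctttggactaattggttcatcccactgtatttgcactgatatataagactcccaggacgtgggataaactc
ABI3BP, chr3:100993516-100993671: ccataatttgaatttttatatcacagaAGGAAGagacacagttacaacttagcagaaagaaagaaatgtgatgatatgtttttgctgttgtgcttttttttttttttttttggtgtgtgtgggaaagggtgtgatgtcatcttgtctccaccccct
ERG start 1, chr21:38660668-38660917: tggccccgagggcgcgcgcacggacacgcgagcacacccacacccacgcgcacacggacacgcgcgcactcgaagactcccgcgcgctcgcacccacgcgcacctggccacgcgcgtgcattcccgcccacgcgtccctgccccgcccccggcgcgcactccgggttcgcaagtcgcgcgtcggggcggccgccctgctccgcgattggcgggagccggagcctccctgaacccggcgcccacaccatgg
ERG start 3, chr21:38498505-38498754: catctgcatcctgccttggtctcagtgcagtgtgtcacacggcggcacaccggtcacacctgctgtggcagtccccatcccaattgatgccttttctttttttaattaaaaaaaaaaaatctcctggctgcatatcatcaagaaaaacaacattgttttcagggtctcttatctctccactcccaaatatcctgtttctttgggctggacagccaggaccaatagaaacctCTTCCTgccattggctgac
FOXO1, chr13:40666642-40666891: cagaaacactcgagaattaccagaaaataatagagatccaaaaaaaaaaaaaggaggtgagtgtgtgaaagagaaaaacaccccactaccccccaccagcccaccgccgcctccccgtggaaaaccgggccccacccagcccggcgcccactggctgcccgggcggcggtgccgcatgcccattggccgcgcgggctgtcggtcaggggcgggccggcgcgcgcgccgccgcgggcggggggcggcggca
FOXO3 start 1, chr6:108559575-108559824: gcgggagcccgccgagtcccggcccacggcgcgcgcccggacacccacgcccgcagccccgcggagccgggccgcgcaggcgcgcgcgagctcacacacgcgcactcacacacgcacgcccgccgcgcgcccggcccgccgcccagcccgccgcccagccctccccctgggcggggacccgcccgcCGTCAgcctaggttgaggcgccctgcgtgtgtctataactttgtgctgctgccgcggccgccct

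Neither window of PRG4, whose 2 starts are close together, held any of the 3 letter strings, which says only that these letters are not in the window. ABI3BP held AGGAAG 223 bases before its start. Start 3 of ERG held CTTCCT, the same motif on the other strand, 19 bases before it, and so did the overlapping window of start 4, 46 bases before that start. FOXO3 has 4 starts, of which start 1 held CGTCA, the reverse complement of TGACG, 64 bases before it, and start 4 held CTTCCT 217 bases before it. None of the windows of CREB5 and FOXO1 held a match, and a match is a description of letters, not a bound site. Over the full 250 bases, of which the letters shown for ABI3BP are a part, the windows also differ in composition, with 37.6% G or C before PRG4, 45.2% before ABI3BP, 67.2% before FOXO1, 80.4% before start 1 of FOXO3, and 77.2% and 46.4% before starts 1 and 3 of ERG.

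PRG4 rose between days 21 and 30 and fell in part by day 45. Its level in CPM was 158.4, 209.3, 255.7 and 263.1 in the 4 libraries of day 21. It was 881.8, 631.3, 710.9, 495.7 and 495.8 at day 30, and 459.8, 285.7, 512.5, 483.6 and 287.9 at day 45. All day 30 and day 45 libraries lay above every day 21 library, while days 30 and 45 overlapped, with day 45 replicates 2 and 5 the lowest of their day. By edgeR's quasi-likelihood test with Benjamini-Hochberg adjustment over all genes tested, used for every count comparison here, PRG4 was 2.90-fold higher at day 30 than at day 21 (log2 fold change 1.54 ± 0.22 SE, adjusted p = 2.24e-05). It was 1.58-fold lower at day 45 than at day 30 (-0.66 ± 0.20, adjusted p = 0.0104) and 1.83-fold higher at day 45 than at day 21 (0.87 ± 0.22, adjusted p = 0.00249). The later change minus the earlier one was -2.20 ± 0.35 in log2 (adjusted p = 7.37e-05). The fall from day 30 to day 45 did not pass with no low-count filter (-0.63, adjusted p = 0.0602). The excess of day 45 over day 21 did not pass by limma on log2(TPM + 1) (0.36, adjusted p = 0.201). At its 3′ end PRG4 shares 670 exon bases with TPR, a nuclear pore gene on the opposite strand that was looked at after its values were seen, and the library kit does not mark strand. TPR moved the other way, with mean CPM of 182.2, 90.79 and 156.5 at days 21, 30 and 45.

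ABI3BP climbed through both intervals and had the largest change of the 7 genes between days 21 and 45. Its CPM was 2.03, 1.04, 0.466 and 0.623 at day 21, from 73 down to 18 expected counts per library. It was 10.4, 13.4, 12.4, 10.1 and 13.1 at day 30, and 197.5, 76.5, 97.6, 93.0 and 141.1 at day 45. No 2 days overlapped, and day 45 replicate 1, the library with the conflicting label, was the highest of its day. ABI3BP was 11.4-fold higher at day 30 than at day 21 (log2 3.51 ± 0.37, adjusted p = 1.49e-06). It was 10.2-fold higher at day 45 than at day 30 (3.35 ± 0.29, adjusted p = 3.36e-07) and 117-fold higher at day 45 than at day 21 (6.87 ± 0.40, adjusted p = 9.72e-10). The later step minus the earlier one was -0.16 ± 0.52 in log2, which did not pass (adjusted p = 0.811). With day 45 replicate 1 placed at day 30, the step from day 30 to day 45 no longer passed (1.25, adjusted p = 0.213) and the later step was smaller than the earlier one (difference -4.12, adjusted p = 0.0330). In TPM, a count divided by transcript length and rescaled to the same total in each library, the mean of ABI3BP among the genes tested went from above 14.8% of them at day 21 to above 51.6% at day 30 and 92.0% at day 45.

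**Figure D1:**
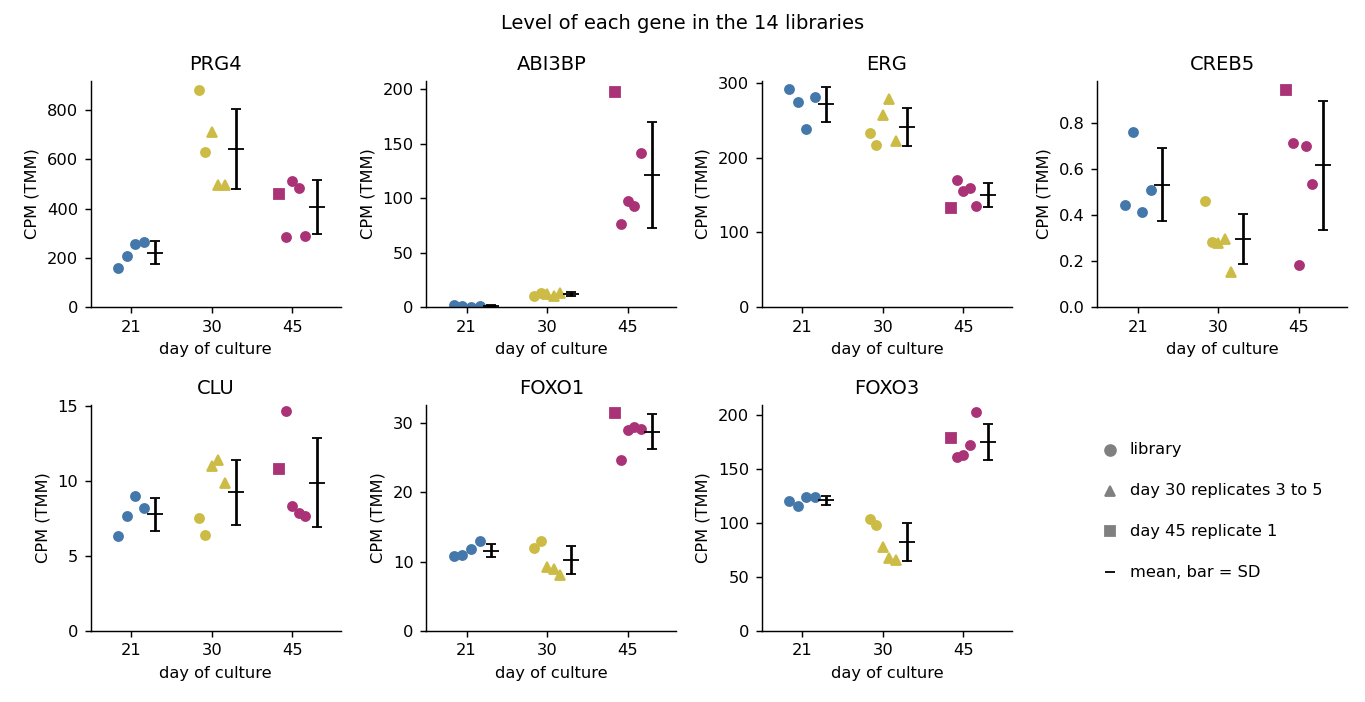
CPM of each of the 7 genes (linear axes from 0) in each library at days 21, 30 and 45; black marks give the mean and its SD, triangles are day 30 replicates 3 to 5 and squares day 45 replicate 1. PRG4 peaks at day 30, ABI3BP at day 45 (76.5 to 197.5), ERG is lowest at day 45 (132.5 to 169.6), and FOXO1 and FOXO3 are highest at day 45 with the triangles lowest.

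ERG fell late. Its CPM was 292.1, 274.1, 238.2 and 280.6 at day 21, 232.6, 217.5, 256.6, 278.5 and 222.0 at day 30, and 132.5, 169.6, 155.4, 159.2 and 135.1 at day 45. Days 21 and 30 overlapped, and every day 45 library lay below all others. ERG was 1.61-fold lower at day 45 than at day 30 (log2 -0.68 ± 0.10, adjusted p = 2.58e-05) and 1.80-fold lower than at day 21 (-0.85 ± 0.11, adjusted p = 2.23e-06). Day 30 against day 21 did not pass (-0.17 ± 0.11, adjusted p = 0.187). The difference between the 2 steps passed (-0.52 ± 0.18, adjusted p = 0.0198), but not without day 30 replicate 4 (-0.41, adjusted p = 0.0702) or without day 30 replicates 3 to 5 (-0.32, adjusted p = 0.259). Nor did it pass with day 45 replicate 1 placed at day 30 (-0.25, adjusted p = 0.483) or with no low-count filter (-0.42, adjusted p = 0.110). ERG is also an endothelial gene. Of 12 endothelial markers, CDH5 was at 0 in every library and EMCN and SOX17 at 0 at days 30 and 45. The 12 summed to 30.8 to 38.1 CPM at day 21, then 18.7 to 31.6 at day 30 and 33.3 to 44.6 at day 45, and their part in the changes of ERG was not tested. Only 4 of the 12 could be tested, of which 3 were higher and 1 lower at day 45 than at day 21. KDR fell (log2 -1.59, adjusted p = 1.97e-06), and TIE1 (2.74, adjusted p = 1.41e-07), SOX18 (2.4, adjusted p = 1.33e-08) and TEK (2.15, adjusted p = 0.00124) rose, TEK being named after its value was seen.

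The day on which ERG fell depended on the unit. In TPM its level was 256.6, 244.5, 196.1 and 250.5 at day 21, 132.8, 95.7, 97.6, 94.8 and 84.1 at day 30, and 77.6, 110.9, 99.9, 98.8 and 81.4 at day 45. On that scale every library of days 30 and 45 lay below day 21, and days 30 and 45 overlapped. By limma on log2(TPM + 1), which understates the change of low genes, ERG fell by 1.23 from day 21 to day 30 (adjusted p = 1.37e-06) and changed by -0.10 from day 30 to day 45 (adjusted p = 0.525). The later minus the earlier change was 1.13 (adjusted p = 0.00055), the opposite sign of that in counts. TPM moved the median of all genes by -0.35 in log2 from day 21 to day 30 and by -0.34 from day 21 to day 45 (0.02 and -0.05 in scaled counts). It gave 1788 genes higher and 9032 lower at day 30 than at day 21, where scaled counts gave 4858 and 4838. For day 45 against day 21 it gave 2140 higher and 8720 lower, where scaled counts gave 4836 and 5448. Relative to the median of all genes the TPM change of ERG was -0.88 from day 21 to day 30 and -0.12 from day 30 to day 45.

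TPM divides by a length that RSEM estimates in each library from the mix of transcripts of a gene, and that length moved for ERG. Its mean transcript length was 2456, 2518, 2897 and 2411 bases at day 21, 3047, 4047, 3896, 4212 and 3911 bases at day 30, and 2649, 2581, 2514, 2756 and 2689 bases at day 45. All 5 libraries of day 30 lay above all 9 others. By limma on log2 length over 14998 genes with more than 1 length, ERG was longer at day 30 than at day 21 (0.57 ± 0.09, adjusted p = 0.00355). It was shorter at day 45 than at day 30 (-0.53 ± 0.08, adjusted p = 0.00123), and day 45 against day 21 did not pass (0.04 ± 0.09, adjusted p = 0.911). Both comparisons with day 30 were added after seeing the data. Neither passed without day 30 replicates 3 to 5 (0.45, adjusted p = 0.0974, and -0.41, adjusted p = 0.0575) or with day 45 replicate 1 placed at day 30 (0.48, adjusted p = 0.0940, and -0.44, adjusted p = 0.0813). At day 30, replicate 1 (3047 bases) was nearer to the other days than replicates 2 to 5. The gene tables do not say which of the 16 transcripts of ERG the length comes from.

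PRG4 and FOXO3 also had longer estimated transcripts at day 30. The length of PRG4 was 4369 to 4512 bases at day 21, then 4691 to 4780 at day 30 and 4488 to 4710 at day 45. Its log2 change was 0.09 ± 0.02 for day 30 against day 21 (adjusted p = 0.0111) and -0.04 for day 45 against day 30 (adjusted p = 0.108). FOXO3 had 5777 to 7050 bases at day 21, then 7278 to 7302 at day 30 and 6075 to 6580 at day 45. The same changes were 0.18 ± 0.05 (adjusted p = 0.0255) and -0.20 ± 0.04 (adjusted p = 0.00668). At day 30 all 5 libraries of FOXO3 sat close to 7308 bases, the length of 1 of its 3 annotated transcripts, the others having 7341 and 2553 bases. Of the 6 members in the length test, 3 were called between days 21 and 30, where 11.7% of all genes in that test were called, 2 between days 30 and 45, where 21.5% were, and 0 between days 21 and 45, where 2.41% were. None of the 3 calls at day 30 against day 21 held without day 30 replicates 3 to 5 or with day 45 replicate 1 placed at day 30. The FOXO3 call at day 45 against day 30 was lost in the same cases (adjusted p = 0.105 and 0.193). Its call at day 30 against day 21 was also lost with the replicate block (0.18, adjusted p = 0.0512) and without any 1 of day 21 replicates 2 and 4 and day 30 replicates 4 and 5 (adjusted p from 0.0515 to 0.0636). The 1750 genes called in that test between days 21 and 30 fell to 108 without day 30 replicates 3 to 5, 132 with day 45 replicate 1 placed at day 30 and 1004 with the replicate block. With 1 library left out they numbered 825 to 2304, with the lowest counts without day 21 replicates 4 (825), 1 (993) and 2 (1117) and day 30 replicates 4 (1152) and 5 (1154). FOXO1 had 5779 bases in every library and was not in the test.

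**Figure D2:**
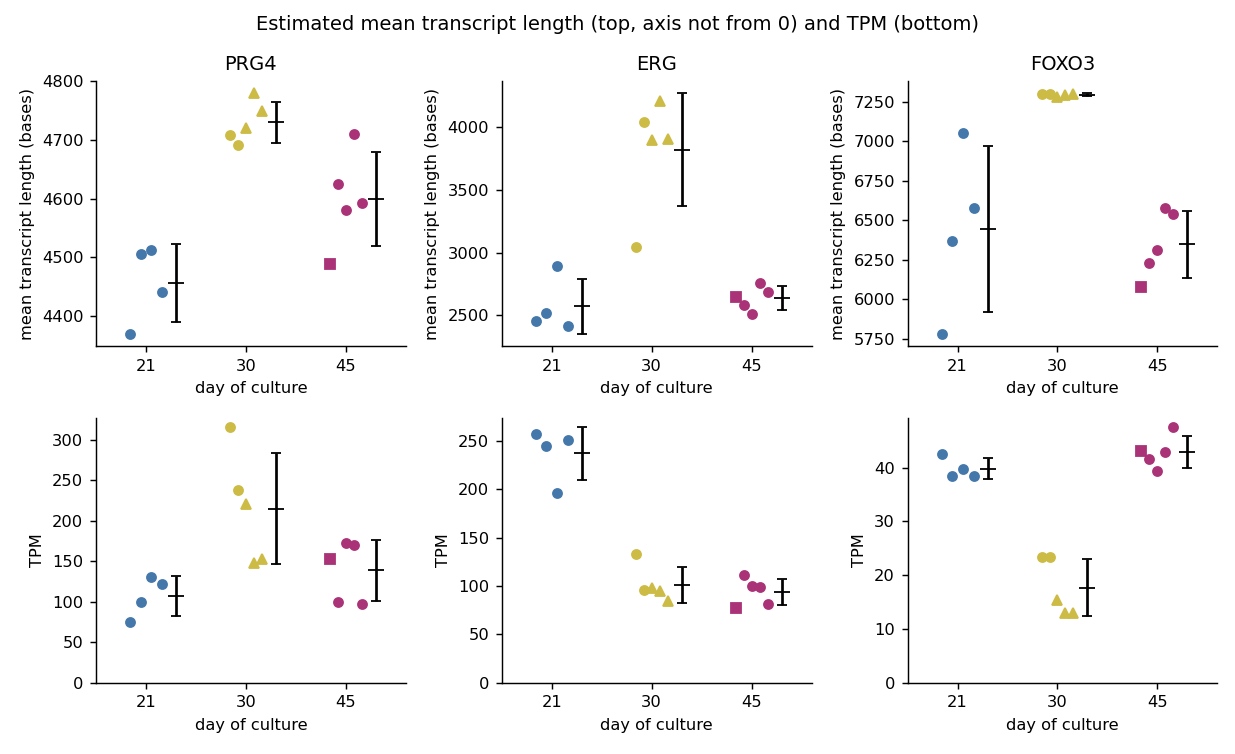
Mean transcript length in bases (top, axes not from 0) and TPM (bottom, from 0) of PRG4, ERG and FOXO3 in each library by day, with mean and SD in black; triangles are day 30 replicates 3 to 5 and squares day 45 replicate 1. ERG is longest at day 30 (3047 to 4212 bases) and its TPM drops between days 21 and 30, and the day 30 lengths of FOXO3 lie within 7278 to 7302 bases.

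FOXO1 and FOXO3 both rose between days 30 and 45. FOXO1 had 10.7, 10.9, 11.8 and 12.9 CPM at day 21, 11.9, 12.9, 9.17, 8.98 and 8.11 at day 30, and 31.5, 24.7, 28.9, 29.5 and 29.2 at day 45. FOXO3 had 120.3, 115.6, 123.9 and 124.3 CPM at day 21, 103.5, 98.0, 77.6, 67.5 and 66.1 at day 30, and 178.6, 161.6, 163.1, 172.0 and 202.9 at day 45. Every day 45 library lay above all others for both genes, and day 30 replicates 3 to 5 were the lowest of all 14. FOXO1 was 2.82-fold higher at day 45 than at day 30 (log2 1.5 ± 0.13, adjusted p = 8.32e-08) and 2.48-fold higher than at day 21 (1.31 ± 0.13, adjusted p = 1.73e-07). FOXO3 was 2.13-fold higher at day 45 than at day 30 (1.09 ± 0.12, adjusted p = 1.6e-06) and 1.45-fold higher than at day 21 (0.54 ± 0.13, adjusted p = 0.00156). With day 45 replicate 1 placed at day 30 the last of these did not pass (0.53, adjusted p = 0.0843). For both genes the later change exceeded the earlier one, by 1.68 ± 0.23 for FOXO1 (adjusted p = 1.43e-05) and 1.64 ± 0.22 for FOXO3 (adjusted p = 1.28e-05). The FOXO1 difference did not pass with day 45 replicate 1 placed at day 30 (0.77, adjusted p = 0.243).

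Between days 21 and 30 FOXO3 fell by 0.55 ± 0.13 in log2 (adjusted p = 0.00136) and FOXO1 did not pass (-0.18 ± 0.13, adjusted p = 0.248). The fall of FOXO3 did not pass with day 45 replicate 1 placed at day 30 (-0.30, adjusted p = 0.291). These values differed between treatments of the data. With an offset for gene length fitted in each library, FOXO3 stood at -0.01 (adjusted p = 0.958) and FOXO1 rose by 0.29 (adjusted p = 0.0224). Without day 30 replicates 3 to 5 FOXO3 fell by 0.27 (adjusted p = 0.0394) and FOXO1 stood at 0.09 (adjusted p = 0.577). The rise from day 30 to day 45 passed in both cases, at 1.1 with the offset and 1.2 without the 3 libraries for FOXO1 and at 0.61 and 0.79 for FOXO3. By limma on log2(TPM + 1) both genes were called lower at day 30 than at day 21, where the median of all genes was -0.348. FOXO3 changed by -1.17 (adjusted p = 9.96e-06) and FOXO1 by -0.50 (adjusted p = 0.00861). On that scale the change of FOXO3 from day 21 to day 45 did not pass (0.10, adjusted p = 0.583). FOXO3 has a near copy, FOXO3B, with 102.53 to 776.28 expected counts per library, whose reads cannot be fully told apart from those of FOXO3; it was looked at after its values were seen. With the counts of both added together FOXO3 changed by -0.65, 1.08 and 0.43 in the comparisons of day 30 with 21, 45 with 30 and 45 with 21, each with an adjusted p below 0.05. FOXO3B by itself changed by -1.48, 0.95 and -0.53 in the same order, each also with an adjusted p below 0.05. Between days 21 and 45 it thus moved the other way from FOXO3.

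**Figure D3:**
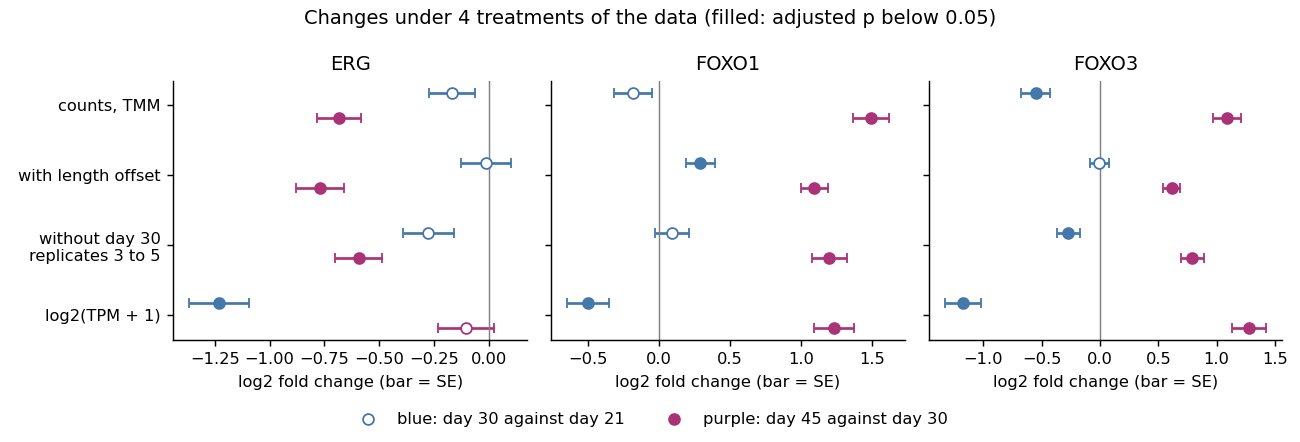
Log2 fold changes of ERG, FOXO1 and FOXO3 from day 21 to day 30 (blue) and from day 30 to day 45 (purple), with SE bars, under 4 treatments of the data; filled points have an adjusted p below 0.05. The fall of ERG moves from the later to the earlier step in TPM (-0.68 in counts, -1.23 in TPM), and the early change of FOXO3 is -0.55 in counts and -0.01 with the length offset.

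CREB5 was the lowest of the 7 genes per length at each day, and its changes rest on few reads. Its expected counts were 16, 30, 16 and 18 at day 21, 12, 5, 6, 6 and 4 at day 30, and 24, 19, 5, 17 and 13 at day 45. In CPM this is 0.414 to 0.760 at day 21, then 0.154 to 0.459 at day 30 and 0.184 to 0.942 at day 45, and all 3 days overlapped. CREB5 was 2.06-fold higher at day 45 than at day 30 (log2 1.05 ± 0.41, adjusted p = 0.038), while day 30 against day 21 (-0.85 ± 0.42, adjusted p = 0.0991) and day 45 against day 21 (0.20 ± 0.39, adjusted p = 0.677) did not pass. The day 45 against day 30 call was lost in 13 of 26 alternatives, among them leaving out any 1 of day 30 replicates 2 to 5 or of day 45 replicates 1, 2 and 4 (adjusted p from 0.0593 to 0.107). With day 45 replicate 1 placed at day 30 it stood at 0.38 (adjusted p = 0.544). The later minus the earlier change of CREB5 was 1.89 ± 0.74 (adjusted p = 0.04), and 0.76 (adjusted p = 0.471) with that library at day 30. This call was lost in 13 of 25 alternatives, among them 8 of the 14 that leave out 1 library. Without day 30 replicates 3 to 5 it stood at 1.18 (adjusted p = 0.427).

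CLU, the clusterin gene, lies at 27596917 to 27615031 of chromosome 8 on the minus strand and had no comparison that passed. Its CPM was 6.34, 7.62, 8.95 and 8.19 at day 21, 7.50, 6.41, 10.97, 11.4 and 9.84 at day 30, and 10.8, 14.6, 8.34, 7.86 and 7.67 at day 45. The days overlapped, with day 45 replicate 2 the highest of all. Its log2 changes were 0.25 ± 0.20 for day 30 against day 21 (adjusted p = 0.319), 0.10 ± 0.19 for day 45 against day 30 (adjusted p = 0.686) and 0.34 ± 0.20 for day 45 against day 21 (adjusted p = 0.157). With the length offset day 45 against day 30 passed (0.46, adjusted p = 0.0289), and with limma voom with sample weights day 45 against day 21 did (0.41, adjusted p = 0.0373). The mean transcript length of CLU was 824 to 1095 bases, below the 3080 bases of its longest annotated transcript.

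Counted together, 3 of the 7 genes were called between days 21 and 30 (2 higher, 1 lower), where 54.4% of all genes tested were called (27.2% higher, 27.1% lower). Between days 30 and 45, 6 of 7 were called (4 higher, 2 lower) against 56.3% of all genes (27.6% higher, 28.7% lower). Between days 21 and 45, 5 of 7 were called (4 higher, 1 lower) against 57.7% of all genes (27.1% higher, 30.5% lower), and the change between the 2 steps was called for 5 of 7 against 52.7%. The median log2 change of the 7 was -0.17, 1.05 and 0.54 in the 3 comparisons of days, where that of all genes was 0.02, -0.04 and -0.05. These comparisons share libraries, so that their calls are not separate pieces of evidence.

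**Figure D4:**
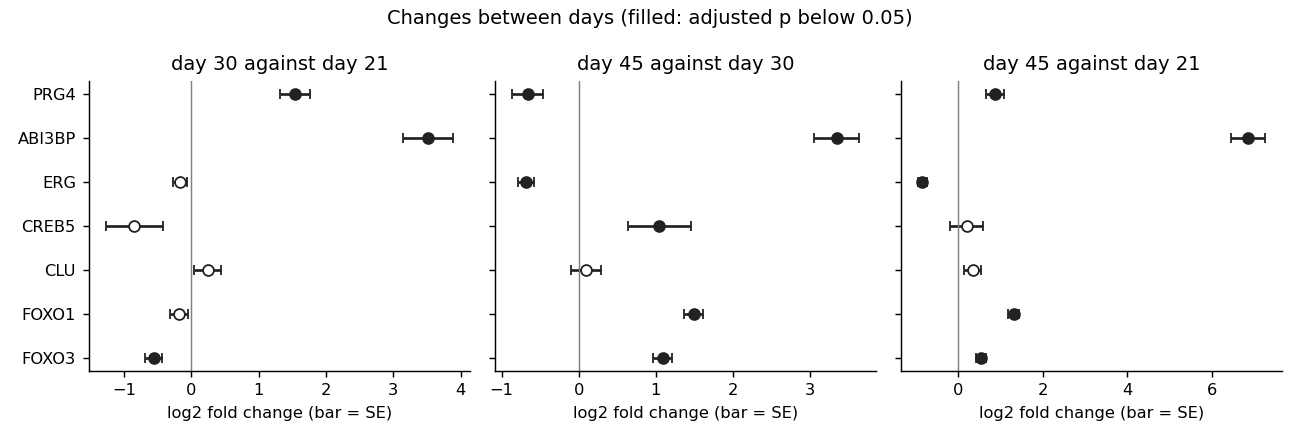
Log2 fold change with SE of each gene in the 3 comparisons of days, from counts; filled points have an adjusted p below 0.05, and the horizontal axes differ in range. ABI3BP reaches 6.87 at day 45 against day 21, ERG is the 1 member called lower there (-0.85), and CLU is open in all 3 panels.

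Per length, the order of the 7 genes changed with the day. At day 21 mean TPM was 236.9 for ERG, 107.1 for PRG4, 39.8 for FOXO3, 24.1 for CLU, 4.25 for FOXO1, 0.973 for ABI3BP and 0.455 for CREB5, and the ranges overlapped between neighbours only for ABI3BP and CREB5. At day 30 it was 215.2 for PRG4, 101.0 for ERG, 19.4 for CLU, 17.6 for FOXO3, 7.42 for ABI3BP, 2.78 for FOXO1 and 0.152 for CREB5, with CLU and FOXO3 overlapping. At day 45 PRG4 (138.8), ERG (93.7) and ABI3BP (84.9) overlapped from one to the next, ahead of FOXO3 (42.9), CLU (22.2), FOXO1 (7.74) and CREB5 (0.514). The TPM of PRG4 was 0.293 to 0.668 times that of ERG at day 21, 1.56 to 2.49 times at day 30 and 0.903 to 1.97 times at day 45. The TPM of FOXO3 was 8.43 to 11.2 times that of FOXO1 at day 21, 5.93 to 6.80 times at day 30 and 5.10 to 6.11 times at day 45.

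The genes around PRG4 moved in both directions. Of 15 genes known to act upstream of it, 3 were higher and 10 lower at day 30 than at day 21, 8 higher and 1 lower at day 45 than at day 30, and 5 higher and 6 lower at day 45 than at day 21 (median -0.09). The last pair was 3 and 7 on log2(TPM + 1), where 2140 of all genes tested were higher and 8720 lower. That background holds for each list count of day 45 against day 21 given below on that scale. In scaled counts, 27.2% of all genes were higher and 27.1% lower at day 30 than at day 21. At day 45, 27.6% were higher and 28.7% lower than at day 30, and 27.1% and 30.5% than at day 21. These shares are the background of each list count from scaled counts above and below. Without day 30 replicates 3 to 5 the day 45 against day 30 counts were 4 and 2. PTH1R, the receptor for parathyroid hormone related peptide, rose from day 21 to day 45 by 4.08 in log2 (adjusted p = 1.81e-09). TGFB3, a transforming growth factor, fell by 1.41 (adjusted p = 2.8e-08) and EGFR, the epidermal growth factor receptor, fell by 1.58 (adjusted p = 6.11e-08). PTH1R also stands on the list of hypertrophic chondrocyte markers, of which 6 of the 7 tested rose and 1 fell. That list summed to 92.4 to 129.6 CPM at day 21, then 396.5 to 582.7 at day 30 and 1677 to 4208 at day 45. None of its 8 genes was at 0 in all libraries of a day, and its part in the changes of the members was not tested. Of 5 tested genes for hyaluronan, its receptors and other binding partners of lubricin, 3 rose and 2 fell by day 45 (median 0.30). CD44, a receptor of hyaluronan and lubricin, rose by 3.14 (adjusted p = 2.62e-10), the hyaluronan synthase HAS2 rose by 0.70 (adjusted p = 0.000923) and HAS1 fell by 2.01 (adjusted p = 0.00203). On log2(TPM + 1) these 5 gave 1 higher and 1 lower.

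Other genes listed for the joint interzone and the articular surface split as well. Of 7 interzone genes, 4 were higher and 2 lower at day 45 than at day 21 (median 0.92), against 3 and 3 on log2(TPM + 1). The ligands GDF5 and WNT16 rose by 2.07 (adjusted p = 1.06e-07) and 6.54 (adjusted p = 4.57e-07), and DCX, a microtubule protein, fell by 4.42 (adjusted p = 2.88e-09). Of 9 genes listed for the articular surface, 4 rose and 3 fell (median 0.44), with 1 higher and 4 lower on log2(TPM + 1). This list also holds genes not confined to the surface zone, such as CILP and CILP2. COL22A1, a collagen of tissue junctions, fell by 5.51 (adjusted p = 3.88e-12), the matrix protein CILP fell by 3.90 (adjusted p = 1.25e-08) and CRTAC1, a secreted cartilage protein, rose by 0.69 (adjusted p = 0.000136). PDPN, a marker of synovial lining fibroblasts that cartilage cells can express too, rose by 3.09 (adjusted p = 4.95e-10). CD55 rose by 2.87 (adjusted p = 1.15e-10) and VCAM1 fell by 4.49 (adjusted p = 3.15e-10). In all, 2 of 5 tested synovial fibroblast markers rose and 3 fell. The summed CPM of these 6 markers was 288.8 to 320.5 at day 21, then 291.3 to 441.5 at day 30 and 425.5 to 617.7 at day 45. None was at 0 in all libraries of a day, and their part in the changes of PRG4 and ABI3BP was not tested.

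Genes known as FOXO targets were mostly higher at day 45. Of the 19 found and tested, 14 were higher and 0 lower at day 45 than at day 30 (median 0.51), and 14 were higher and 1 lower than at day 21 (median 0.72), where 27.1% of all genes were higher. With day 45 replicate 1 placed at day 30 these counts were 9 and 0, and 11 and 1. Without day 30 replicates 3 to 5 they were 10 and 2, and 15 and 1. On log2(TPM + 1) they were 14 and 0, and 9 and 2. GADD45A, a stress response gene, rose from day 21 to day 45 by 3.19 (adjusted p = 3.88e-12), TXNIP, an inhibitor of thioredoxin, by 2.72 (adjusted p = 1.11e-11) and CITED2, a transcriptional coregulator, by 1.22 (adjusted p = 3.78e-08). ULK1, a kinase that starts autophagy, was the 1 target that fell (-0.34, adjusted p = 0.0188), and was named after its value was seen. Among 12 FOXO relatives and regulators 6 rose and 1 fell (median 0.26), but 3 rose and 3 fell on log2(TPM + 1). FOXO4 rose by 2.4 (adjusted p = 1.67e-09), FOXO6 fell by 1.34 (adjusted p = 1.18e-06) and IRS1, the insulin receptor substrate upstream of AKT, rose by 1.18 (adjusted p = 4.59e-05).

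ERG was not the only ETS factor to fall. Of 17 tested relatives, 1 was higher and 8 lower at day 30 than at day 21, 11 higher and 3 lower at day 45 than at day 30, and 5 higher and 8 lower at day 45 than at day 21 (median -0.14). On log2(TPM + 1) the last pair was 2 and 11 (median -0.55, where that of all genes was -0.34). The first pair was 0 and 16 on that scale (median -0.84, where that of all genes was -0.35). Without day 30 replicates 3 to 5 the second pair was 6 and 2. The FGF-responsive factors ETV1, ETV4 and ETV5 fell between days 21 and 45, with log2 changes of -2.18 (adjusted p = 9.83e-10), -4.13 (adjusted p = 6.94e-10) and -1.55 (adjusted p = 7.47e-10). ETV5 rose between days 30 and 45 (0.47, adjusted p = 0.000566). Of 12 CREB and ATF genes 4 rose and 2 fell by day 45 (median 0.27), with 1 higher and 4 lower on log2(TPM + 1) and 2 and 2 with day 45 replicate 1 placed at day 30. CREB3 rose by 0.64 (adjusted p = 1.68e-05), CREB3L1 by 0.46 (adjusted p = 0.0124), and the coactivator gene CRTC3 fell by 0.30 (adjusted p = 0.0128). Of 7 cAMP response genes 3 rose and 2 fell, with NR4A1 up by 0.86 (adjusted p = 1.46e-05), PER1 up by 1.24 (adjusted p = 1.4e-08) and the phosphodiesterase gene PDE4B down by 1.02 (adjusted p = 2.06e-06). Of the 2 clusterin receptors tested, VLDLR rose by 2.72 (adjusted p = 3.63e-10) and LRP8 did not pass (0.14, adjusted p = 0.422).

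**Figure D5:**
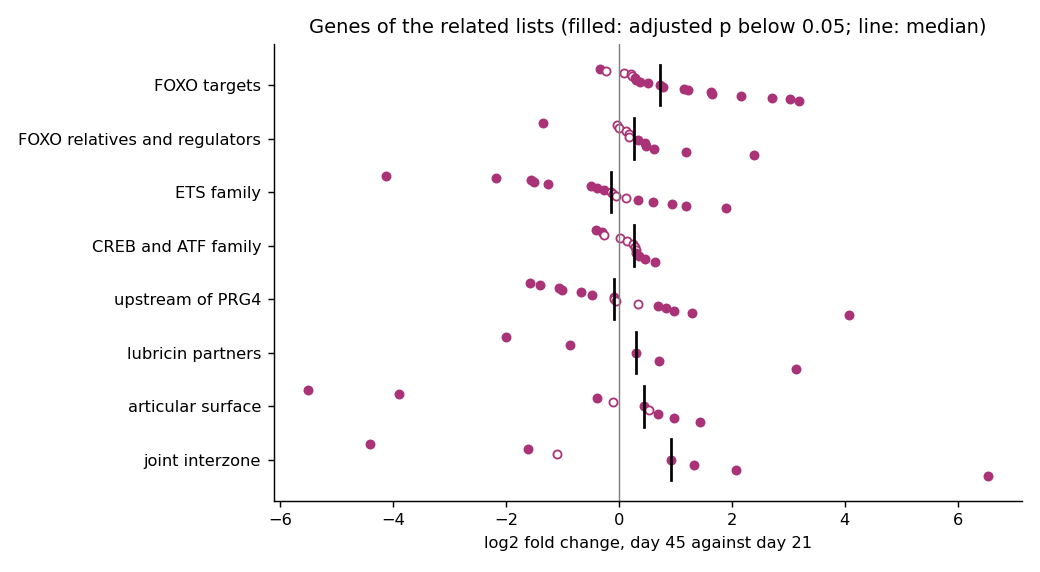
Log2 fold change of day 45 against day 21, from counts, of each tested gene of 8 related lists; filled points have an adjusted p below 0.05 and the black line is the median of the list. Of the FOXO targets 14 of 19 are filled to the right of 0, and the ETS family has 5 filled to the right and 8 to the left.

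Immediate early genes, which respond to cell handling as well as to growth signals, moved mostly up over the same days. Of 11, 7 were higher and 1 lower at day 45 than at day 21 (median 1.62), where 27.1% of all genes were higher and 30.5% lower. These counts were 6 and 3 on log2(TPM + 1). The 1 that fell was EGR3 (-2.04, adjusted p = 4.59e-05), named after its value was seen. FOS rose by 2.79 (adjusted p = 2.05e-10), JUNB by 2.14 (adjusted p = 2.62e-10) and DUSP1 by 2.69 (adjusted p = 4.45e-11). Their summed CPM was 192.9 to 204.3 at day 21, then 246.2 to 302.3 at day 30 and 543.2 to 727.7 at day 45, and their part in the day 45 levels of FOXO1, FOXO3 and the FOXO targets was not tested.

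The genes with the most similar pattern were found for each member by the smallest root-mean-square difference of centred log2 CPM over the 14 libraries, which share day and depth. For PRG4 they were SHISA2 (0.24), DOK5 (0.30) and DUSP14 (0.31), and for ABI3BP CRYAB (0.52), COL10A1 (0.60) and ISM2 (0.61). For ERG they were TSPAN14 (0.09), FNTB (0.11) and RBM4 (0.12), for FOXO1 JAK1 (0.12), MYO5A (0.12) and MTMR2 (0.14), and for FOXO3 ABL2 (0.09), EIF3A (0.10) and IGF1R (0.10). COL10A1, the hypertrophic collagen, had mean CPM of 11.02, 99.4 and 1734 at days 21, 30 and 45, where ABI3BP had 1.04, 11.9 and 121.1. SHISA2 had 17.1, 44.9 and 30.6 CPM, with its highest mean at day 30 like PRG4. For CREB5 (TMEM232, MAP2K6 and TRIM58, from 0.36 to 0.41) and CLU (THAP7, GALM and C1orf35, from 0.22 to 0.23), the member's own standard deviation was 0.65 and 0.34, so that the nearest genes were not close on that scale.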

How the data were processed

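Total RNA of WA01-derived pellets was extracted with an RNeasy micro kit, per the labels' protocols. They name TruSeq v2 as the RNA library kit, which does not mark strand. The authors deposited 1 RSEM gene table per library, with expected counts, TPM, FPKM (not used) and mean and effective transcript lengths in bases, per the file headers. STAR 2.4.2a, RSEM 1.2.25 and GRCh38 are named per the submitters' processing notes; their annotation release: not given in the sources used here. Gene symbols matched 60333 of 60587 identifiers; 19 of 20 FOXO targets were found.

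Expected counts, deposited by the authors, were rounded and tested with edgeR 4.0.16 (R 4.3.3): filterByExpr by day, TMM scaling, robust quasi-likelihood fit of all 14 libraries with 1 mean per day, Benjamini-Hochberg adjustment over 17838 genes, called below 0.05. SE is the absolute log2 fold change divided by the square root of F. TPM and log2 transcript length, both from the deposited tables, were tested with limma 3.58.1 (trend, robust). Both scripts were tested on simulated data. Alternatives were DESeq2 1.42.0, its size factors, log2(TPM + 1) and log2(TPM + 0.1), voom, other filters, only the days compared, a length offset, a replicate block, day 45 replicate 1 placed at day 30, and leaving out libraries; adding FOXO3B to FOXO3 and recounting the lists were added after seeing the data. Chi-square per degree of freedom between replicates was 7.83 to 166.9 over 26 pairs, so no library was counted as a repeat.

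The members and lists were chosen with earlier results of these data known. Named genes are the 7 members and the 3 genes nearest each member. From each list they are the 3 genes with the smallest adjusted p for day 45 against day 21. From each marker list the most abundant gene is added. None are named from the marker lists counted next. These are fibroblast and perichondrium, tendon, smooth muscle, epithelium, neuron and glia, blood and adipocyte. In that order 8, 6, 5, 4, 9, 2 and 5 genes were tested. At day 45, 2, 1, 1, 2, 2, 1 and 3 were higher than at day 21, and 2, 4, 2, 1, 6, 1 and 0 lower. The tendon list summed to 2129 to 2380 CPM at day 21 and 3915 to 4951 at day 45. The fibroblast and perichondrium list summed to 30550 to 32610 and 28630 to 37980. The part of these cell types in the changes of the members was not tested.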

Additional observations from a re-analysis of the deposited data

Results flagged for a closer look

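In 39 groups of 4 or 5 libraries examined, 4 had 1 library far from the others by Dixon's criterion, which chance gives in about 1 of 20 groups, and all 4 concern estimated transcript length. For ERG, day 30 replicate 1 had 3047 bases against 3896 to 4212 in the other 4 libraries of that day. For FOXO3, day 30 replicate 3 had 7278 bases against 7296 to 7302, a small difference in a day with little spread. For CREB5, day 21 replicate 2 had 6972 bases against 1561 to 2402, and day 30 replicate 1 had 1535 bases against 8539 in each of the other 4, where a library holds 4 to 30 expected counts of the gene.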

How the results depend on the processing

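Of 745 recomputed log2 fold changes of the members, 690 kept their direction or stayed uncalled on the same side of the threshold. A call was lost in 42, 26 of them for CREB5, and gained in 9. The other 4 changed sign, with a call before or after the recomputation. On log2(TPM + 1) and log2(TPM + 0.1), 5 and 6 members were called between days 21 and 30 and 3 and 3 between days 21 and 45. Among all 17838 genes tested, log2(TPM + 1) called 1788 higher and 9032 lower at day 30 than at day 21. It called 2140 higher and 8720 lower at day 45 than at day 21. In the same order, log2(TPM + 0.1) called 1749 and 8892, and 2119 and 8641. The later minus the earlier change reversed for ERG on both TPM scales (1.129 and 1.135). For ABI3BP it was uncalled in scaled counts (-0.16) and was called with the opposite sign on log2(TPM + 1) (1.172). On log2(TPM + 0.1) it did not pass (0.51). FOXO1 was uncalled between days 21 and 30 in scaled counts (-0.18) and was called with the opposite sign with the length offset (0.2919). The later minus the earlier change was called for 3 members with no low-count filter, where 4574 genes were called above 0 and 4810 below 0. With day 45 replicate 1 placed at day 30 it was called for 3 members, and for 3160 genes above 0 and 3681 below 0 of 17838. That placement also left 6466 genes called between days 30 and 45. Without day 30 replicates 3 to 5 the later minus the earlier change was called for 3 members and for 5659 of 18509 genes tested. Leaving out 1 library at a time gave 3 to 5 members and 8262 to 9623 genes called for that change. It gave 3 members only without day 30 replicate 4, where ERG and CREB5 lost the call. The cause of these changes was not tested.

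Same-numbered libraries did not deviate together (r of -0.251 to 0.116 over 13 pairs, 2 of them over 0.1), so the numbers were not used to pair them. With the replicate number as a block 3, 6, 5 and 4 members were called in the 4 comparisons and 8872, 9519, 9728 and 8632 genes; CREB5 lost the later minus earlier call (1.78, adjusted p = 0.0542). Genes with changed length between days 21 and 45 numbered 361, 144 with the replicate block, 101 with day 45 replicate 1 placed at day 30, and 157 to 383 with 1 library left out (157 without day 21 replicate 3, 180 without day 21 replicate 2). Depth limits CREB5, with 4 to 30 counts in each library, and ABI3BP at day 21.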
